A study of Mus musculus with 69 samples.

Results

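The immediate early response genes Fos, Fosb, Jun, Junb, Egr1, Atf3, Ier2, Ier3, Dusp1 and Klf4 were followed in the kidneys of NZB/W F1 mice, a hybrid strain that develops lupus nephritis. The 10 genes were chosen by symbol, and each was measured in every library, 10 of 24523 symbols with counts. Whole perfused kidneys were taken at 6 time points, ZT0, 4, 8, 12, 16 and 20, where ZT0 is lights on and ZT12 lights off. Young mice were 12 weeks old and numbered 30 (7, 4, 4, 7, 4 and 4 over the time points). Nephritic mice were untreated, 30 to 45 weeks old and killed 2 to 3 weeks after proteinuria passed 300 mg/dl, and numbered 27 (7, 4, 4, 6, 3 and 3). The 8 remission mice, 4 at ZT0 and 4 at ZT12, had been 36 to 50 weeks old when treated. At the same degree of proteinuria they received 1 dose of cyclophosphamide (50 mg/kg) with 6 doses of CTLA4Ig (200 µg) and anti-CD40L (250 µg) over 2 weeks, and they were harvested 8 weeks later with proteinuria of at most 30 mg/dl. Nephritic mice were older than young mice, so age and nephritis cannot be told apart in that comparison. The libraries of remission mice came from a separate run, together with 4 repeat libraries. Remission mice also differed from both other groups in treatment and age. In comparisons with them, remission, treatment and age cannot be told apart, and run only by way of the repeat libraries.

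Immediate early genes are switched on within minutes of a stimulus such as a growth factor, a hormone, stretch, injury or handling, without new protein synthesis, from factors already bound at their promoters. Fos, Fosb, Jun and Junb encode subunits of the dimeric transcription factor AP-1, Atf3 a related leucine zipper protein of stress responses, and Egr1 and Klf4 zinc finger transcription factors. Dusp1 encodes a phosphatase that switches off MAP kinases, and Ier2 and Ier3 encode nuclear or survival proteins of the same early wave. In kidney the family is known for its rise after ischaemia and other tubular injury. Messages of this kind are made in short bursts and turn over fast.

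The promoters of Fos, Junb and Dusp1, a pair of AP-1 genes and a MAP kinase phosphatase, are shown for the motif they share. Each run is the 250 bases before the gene start, 5′ to 3′ on the coding strand, from RefSeq for GRCm38.p6, with TGACG, the core of a cyclic AMP response element, in capitals on either strand. The windows are chr12:85473640-85473889 (plus strand) for Fos, chr8:84978749-84978998 (minus strand) for Junb and chr17:26508473-26508722 (minus strand) for Dusp1.

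Fos: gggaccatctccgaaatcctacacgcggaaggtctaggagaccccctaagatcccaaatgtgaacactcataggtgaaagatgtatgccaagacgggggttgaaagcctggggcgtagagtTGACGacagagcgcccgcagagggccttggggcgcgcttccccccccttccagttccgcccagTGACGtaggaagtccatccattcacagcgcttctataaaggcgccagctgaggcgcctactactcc
Junb: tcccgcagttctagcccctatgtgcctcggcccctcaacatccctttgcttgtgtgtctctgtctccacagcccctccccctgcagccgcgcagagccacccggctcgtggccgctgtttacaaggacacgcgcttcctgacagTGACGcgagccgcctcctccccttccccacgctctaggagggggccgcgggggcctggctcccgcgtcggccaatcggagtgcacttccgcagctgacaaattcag
Dusp1: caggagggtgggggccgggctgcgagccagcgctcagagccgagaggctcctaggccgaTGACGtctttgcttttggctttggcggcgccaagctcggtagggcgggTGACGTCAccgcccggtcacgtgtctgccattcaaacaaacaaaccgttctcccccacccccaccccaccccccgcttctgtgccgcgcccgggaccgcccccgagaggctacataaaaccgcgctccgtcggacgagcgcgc

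Windows of 300 bases, from 250 before to 50 after the gene start, were held for 8 of the 10 genes. TGACG or its reverse complement was found in 6 of these 8 (Fos, Fosb, Junb, Atf3, Dusp1 and Klf4), beside 20.8% of 32851 such windows of all genes. The Dusp1 window held the whole palindrome TGACGTCA, which contains 2 overlapping copies of TGACG and occurred in 1.79% of all windows. The CArG box, the site of serum response factor, was found in 0 of the 8 windows and in 1.63% of all, in a window that reaches no farther upstream. TATAAA was found in Fos, starting at -33 from the gene start, and in Junb, and in 13.6% of all windows. The Junb match starts at the gene start, outside the 250 bases shown. TGANTCA, where N is any base, was found in 0 of the 8 windows and in 7.81% of all. GCGNGGGCG was found in 2 of the 8 (Fosb and Klf4) and in 5.55% of all. CACGTG was found in 2 of the 8 (Dusp1 and Klf4) and in 7.15% of all. The CACGTG of Dusp1 starts at -126 and is in small letters in the run shown. Egr1 and Ier2 are named without a window. The genes lie apart in the genome, on chromosomes 1 (Atf3), 4 (Jun and Klf4), 7 (Fosb), 8 (Junb and Ier2), 12 (Fos), 17 (Ier3 and Dusp1) and 18 (Egr1).

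Total counts were 25.3 M to 35.7 M (M, mega) in young mice, 26.6 M to 48.1 M in nephritic mice and 13.3 M to 21.8 M in remission mice. All 8 kidney markers were present. The summed level of 10 leukocyte markers was 72.1 to 142 CPM, the count scaled to the library total, in young mice and 111 to 860 CPM in nephritic mice, and that of 3 markers of tubular injury 25.9 to 128 and 28.2 to 1543 CPM. In whole kidney, a change in the share of a cell type and a change in RNA per cell cannot be told apart. Over 100 counts of the adrenal enzyme Cyp11b1 were found in 8 young mice, 1 at ZT0, 3 at ZT12, 3 of the 4 at ZT16 and 1 at ZT20, and in 1 nephritic mouse at ZT0. These 9 are called mice with adrenal RNA below. The summed level of 8 adrenal markers was 3.79 to 1377 CPM in young mice and 4.98 to 862 CPM in nephritic mice. The study lists 2 sets of RNASeq. Mice were put in Set 1 (6 young and 5 nephritic mice of ZT0 and ZT12 only) or Set 2 (the rest) by the series of names in their titles, which do not state a set. The repeat library labelled RX11RU, a nephritic mouse of ZT12, lay nearest over all genes to the original library of RX11LU, a nephritic mouse of ZT4, so the labels of these libraries are in doubt. Results that changed without the originals of both mice are given so, an alternative chosen after seeing the data. Each mouse was a separate animal. Levels below are CPM after TMM scaling, given as mean ± SD, and differences are log2 changes with their standard error (SE) from edgeR's quasi-likelihood test, whose p was adjusted over all genes tested and called at 0.05.

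In young mice, Atf3, Dusp1, Ier3, Klf4, Fosb and Junb varied over the day, with the lowest mean at ZT4 or ZT8 and the highest at ZT12 or ZT16. Of the 10 genes, 6 varied over the 6 time points, beside 39.8% of 16521 genes tested. The set-adjusted mean was highest at ZT16 for 9 of the 10 and at ZT12 for Ier3, and it was lowest at ZT8 or ZT4 for all 10. The shares of all genes with these time points were not computed. All young mice of ZT16 but ZT16LU were mice with adrenal RNA. The mouse ZT16LL was highest of the young ZT16 group for 9 of the 10 genes. Whether the mean at ZT16 stays highest without this mouse was not computed. The set-adjusted mean at the highest time point was 6.73 times that at the lowest for Atf3, 6.39 for Fosb, 3.44 for Fos, 3.07 for Egr1, 2.95 for Ier3, 2.80 for Dusp1, 2.30 for Jun, 2.08 for Junb, 1.72 for Klf4 and 1.51 for Ier2. The peak of a fitted 24 h cosine lay between 13.5 h (Ier3) and 18.3 h (Fos).

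Atf3 ranged from 0.758 to 2.53 CPM in the 4 young mice of ZT4 and from 4.48 to 17.3 CPM in the 4 of ZT16, so that the groups did not overlap. Its means were 5.11 ± 2.20 CPM (SD, n = 7) at ZT0, 1.52 ± 0.739 CPM (SD, n = 4) at ZT4 and 10.9 ± 5.31 CPM (SD, n = 4) at ZT16, and the edgeR adjusted p over the day was 0.00437. Dusp1 was 119 ± 26.2 CPM (SD, n = 4) at ZT4, 311 ± 73.0 CPM (SD, n = 7) at ZT12 and 336 ± 95.0 CPM (SD, n = 4) at ZT16 (edgeR adjusted p = 0.000126). Every ZT16 value of Dusp1, 228 CPM or more, lay above every ZT4 value, 135 CPM or less. Ier3 rose from 42.9 ± 5.28 CPM (SD, n = 4) at ZT4 to 127 ± 24.4 CPM (SD, n = 7) at ZT12 (edgeR adjusted p = 0.000134), again without overlap. At ZT8, still in the light phase, its mean was already 93.6 ± 31.3 CPM (SD, n = 4). The groups without overlap were the lowest and highest time points of each gene, picked from the same values, so this is a description. How often this held over all genes was not computed.

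Klf4 moved less, from 6.20 ± 0.883 CPM (SD, n = 4) at ZT8 to 10.8 ± 2.09 CPM (SD, n = 4) at ZT16, with an edgeR adjusted p of 0.000499. Its mean at ZT0, 10.3 ± 1.79 CPM (SD, n = 7), was near that at ZT16. Fosb was 1.33 ± 1.05 CPM (SD, n = 4) at ZT8 and 7.35 ± 3.75 CPM (SD, n = 4) at ZT16 (edgeR adjusted p = 0.0243), and Junb 59.8 ± 26.7 and 119 ± 39.0 CPM (SD, n = 4 each; edgeR adjusted p = 0.0466). The lowest ZT16 mouse reached the range of ZT8 for Junb, 78.3 beside 94.6 CPM, but not for Fosb, 2.94 beside 2.46 CPM. Junb passed in 10 of the 30 fits that each left out 1 mouse, and without the ZT16 mouse ZT16LL its edgeR adjusted p was 0.207. Fos went from 15.48 ± 8.63 to 47.8 ± 25.9 CPM (SD, n = 4 each) between the same time points without passing (edgeR adjusted p = 0.0821), and Egr1, Jun and Ier2 had adjusted p of 0.369, 0.304 and 0.387. Without the 9 mice with adrenal RNA, an alternative chosen after seeing the data that leaves 1 young mouse at ZT16, 4 of the 10 genes passed, beside 24.4% of 16079 genes: Ier3 (edgeR adjusted p = 0.00232), Dusp1 (0.00536), Klf4 (0.0113) and Atf3 (0.0419).

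**Figure D1:**
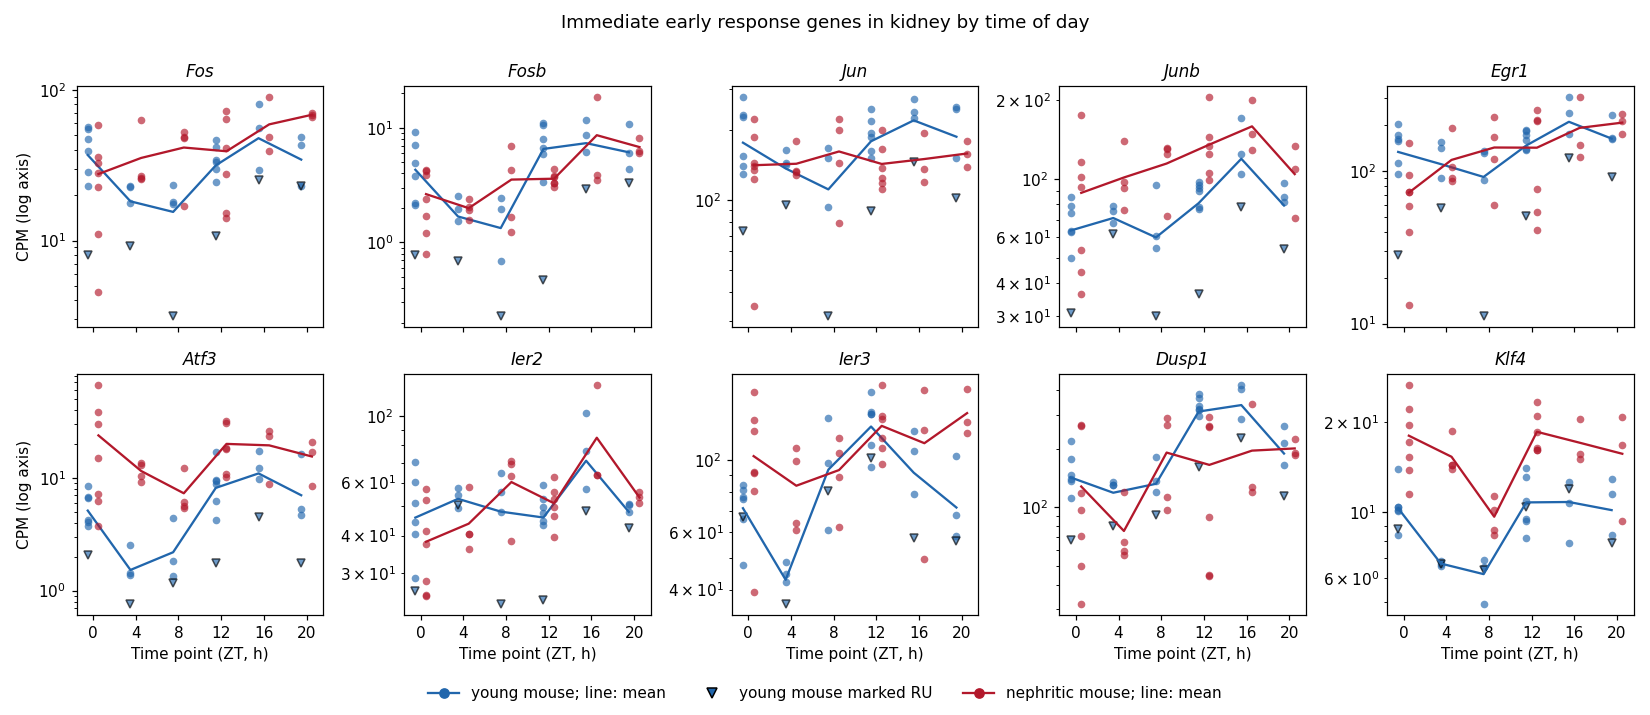
Level of each gene in CPM (log axis) against time point in hours for the 30 young (blue) and 27 nephritic (red) mice; each point is a mouse, lines join the means, and triangles are the 6 young mice whose title ends in RU. Atf3 of young mice rises from a mean of 1.52 CPM at ZT4 to 10.9 CPM at ZT16, and the triangles lie at or near the bottom of most young groups.

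Mice killed at the same time differed widely, and 1 young animal in each Set 2 group held most of the low values. The titles of the 24 young Set 2 mice end in a mark, RU, RL, LU, LL or 0, with 1 mouse marked RU in each of the 6 groups of 4. This pattern was noticed in the values and then counted. The mouse marked RU held 51 of the 60 lowest values of the 10 genes over the 6 groups, and 1 of the 60 highest.

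Egr1 was 28.3 CPM in the ZT0 mouse marked RU and 113 to 204 CPM in the other 3 of the set, and 57.2 beside 89.8 to 154 CPM at ZT4. At ZT8 it was 11.2 CPM beside 87.5 to 136 CPM, and at ZT12 it was 51.0 beside 138 to 186 CPM. At ZT16 it was 122 beside 175 to 304 CPM, and at ZT20 91.8 beside 161 to 233 CPM. The mouse marked RU was thus below the other 3 at all 6 time points, with a mean difference of -1.74 on the log2(CPM + 0.5) scale. Fosb (-1.61), Atf3 (-1.33), Jun (-1.14), Junb (-0.88) and Dusp1 (-0.87) were also lowest in it at all 6, Fos (-1.50) and Ier2 (-0.75) at 5, Ier3 (-0.37) at 4 and Klf4 (-0.01) at 1.

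Over all 17587 genes with at least 100 counts, the mouse marked RU was lowest for 20.1% to 32.9% of genes, depending on the time point, and its median difference from the others was between -0.01 and 0.01. In all, 25 genes (0.142%) were lowest in it at all 6 time points, and 6 of them were among the 10. Another 7 came from the list of 39 other immediate early genes measured: Btg2, Csrnp1, Dusp6, Nr4a1, Plk3, Trib1 and Zfp36. The 12 outside both lists included Slc25a25, Rcan1, Errfi1 and Hbegf. The 6 mice had total counts of 26.4 M to 32.9 M beside 25.3 M to 33.9 M in the other 18, and 2 of the 6 and 6 of the 18 had over 100 counts of Cyp11b1. The ZT0 mouse of Set 1 marked RU was lowest for 0 of the 10 genes. In nephritic mice the marks do not recur 1 to a group. What the mark stands for is not given in the sources used here, and its part in these values was not tested. Without these 6 mice, an alternative chosen after seeing the data, 8 of the 10 genes varied over the day in young mice, beside 32.4% of 16247 genes, Fos (edgeR adjusted p = 0.0146) and Egr1 (0.0315) joining the 6. The 6 mice were singled out by their low values of these genes. Leaving them out narrows the spread of young mice and raises their mean by construction, and calls made without them are a description.

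**Figure D2:**
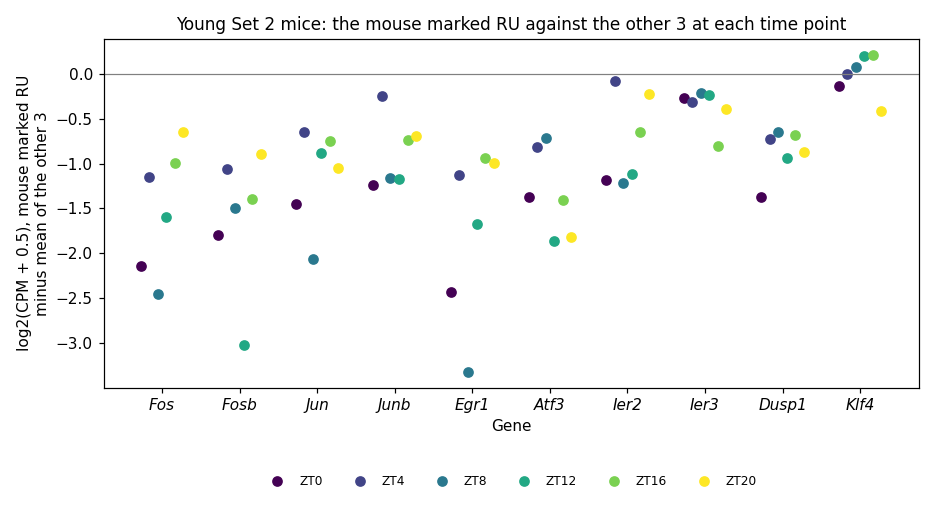
Difference in log2(CPM + 0.5) between the young mouse marked RU and the mean of the other 3 Set 2 mice of its time point, for each gene and each of the 6 time points (colours); the grey line marks no difference. The 6 differences of Egr1, Fosb, Jun, Junb, Atf3 and Dusp1 lie below 0, and those of Klf4 lie on both sides.

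The spread between mice, once time point and set were removed, was larger than that of most genes. The SD of log2 CPM had a median of 0.56 over the 10 genes in young mice and 0.64 in nephritic mice, beside 0.18 and 0.28 over all genes. Fosb had the largest SD in young mice, 1.17, above that of 98.2% of genes, followed by Egr1 (0.92), Atf3 (0.91) and Fos (0.85). Klf4 had the smallest, 0.22, above that of 57.7% of genes. In nephritic mice Atf3 led with 1.00, and 5 of the 10 genes had a larger SD than in young mice. The share of all genes with a larger SD was not computed, and the SD of young mice includes the mice marked RU. A Levene type test with limma on absolute deviations called 0 of the 10 genes for a difference in spread, beside 16.9% of 17521 genes, and 2 had an unadjusted p under 0.05, Klf4 (limma adjusted p = 0.109) and Dusp1 (0.139).

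In nephritic mice, Ier2, Fosb and Klf4 varied over the day. Over the 6 time points these were the 3 of the 10 genes that passed, beside 21.6% of 16872 genes: Ier2 (edgeR adjusted p = 0.0252), Fosb (0.0321) and Klf4 (0.0387). The highest set-adjusted mean was at ZT20 for 5 genes (Fos, Fosb, Egr1, Ier3 and Dusp1), at ZT16 for 3 and at ZT12 for 2.

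Ier2 was 38.1 ± 12.9 CPM (SD, n = 7) at ZT0, with values from 25.2 to 57.03 CPM, and its 3 mice at ZT16 had 63.6, 63.7 and 127 CPM. Fosb was 1.56, 1.94, 2.06 and 2.41 CPM in the 4 mice of ZT4 and 6.01, 6.22 and 8.14 CPM in the 3 of ZT20. Klf4 was 9.65 ± 1.37 CPM (SD, n = 4) at ZT8 and 18.6 ± 3.02 CPM (SD, n = 6) at ZT12. These groups did not overlap for any of the 3 genes. They were the lowest and highest time points of each gene, picked from the same values, so this is a description. How often this held over all genes was not computed. The ZT16 mouse RX8LL was highest of its group for 8 of the 10 genes, and without it Ier2 did not pass (edgeR adjusted p = 0.103). Klf4 passed in 15 of the 27 fits that each left out 1 mouse and had its highest edgeR adjusted p, 0.123, without the ZT8 mouse RX12RL. Fosb passed in 23 of them, with 0.0653 without the ZT4 mouse RX11RL. Without RX11LU and RX11RU, Ier2 alone passed (edgeR adjusted p = 0.0321), beside 14.5% of 16794 genes, with 0.0643 for Fosb and 0.0615 for Klf4.

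The amplitude of a 24 h cosine was smaller in nephritic than in young mice for 8 of the 10 genes, all but Junb and Ier2. For Atf3 it was 0.51 (SE 0.30) beside 1.25 (SE 0.26), and for Dusp1 0.49 (SE 0.23) beside 0.80 (SE 0.12). The share of all genes with a smaller amplitude was not computed, so whether the count is particular to these genes is not shown. In edgeR fits with a 24 h cosine, 39.8% of all genes passed in young and 2.15% in nephritic mice. The difference between the profiles themselves, tested by the diagnosis by time terms of an edgeR fit of both groups, passed for 0 of the 10 genes, beside 6.27% of 17521 genes. None had an unadjusted p under 0.05, none passed with DESeq2 or limma, and the smallest adjusted p was that of Ier3, 0.219. A p above the threshold does not show that the profiles were alike.

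Averaged over the day, nephritis went with higher Atf3, Klf4, Junb and Ier3, lower Dusp1, and no called change in the other 5. Of the 10 genes, 5 passed, beside 62.1% of 17521 genes. Of these, 4 were higher, beside 28.1% of all genes, and 1 was lower, beside 33.9%. The median log2 change over the 10 genes was 0.20, and over all genes -0.03.

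Atf3 had values of 0.758 to 17.3 CPM (median 4.44) in young and 3.73 to 66.0 CPM (median 13.01) in nephritic mice. Of the 27 nephritic mice, 26 lay above the young median and 10 above the highest young mouse, and the log2 change was 1.69 (SE 0.25, edgeR adjusted p = 9.3e-08). Klf4 was 4.91 to 14.1 CPM (median 9.39) in young and 8.38 to 26.6 CPM (median 16.1) in nephritic mice. It separated the groups best, with 19 of 27 nephritic mice above every young mouse and a log2 change of 0.78 (SE 0.08, edgeR adjusted p = 9.8e-13).

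Junb went from a median of 78.2 CPM (29.9 to 171) to 116 CPM (36.5 to 205), a log2 change of 0.57 (SE 0.13, edgeR adjusted p = 0.000112). Ier3 went from a median of 79.7 CPM (36.05 to 162) to 110 CPM (39.2 to 170), a log2 change of 0.40 (SE 0.12, edgeR adjusted p = 0.00351). For both, 3 nephritic mice exceeded the highest young mouse, and the ranges otherwise overlapped. Dusp1 fell from a median of 171 CPM (67.7 to 426) to 120 CPM (31.7 to 341), with 7 nephritic mice below the lowest young mouse and a log2 change of -0.46 (SE 0.19, edgeR adjusted p = 0.0356).

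Dusp1 passed in 31 of the 57 fits that each left out 1 mouse, with an edgeR adjusted p of up to 0.095 (without the ZT12 mouse HIL5RU), and without the 9 mice with adrenal RNA it had 0.0687. In Set 2 alone its log2 change was -0.13 (SE 0.18, edgeR adjusted p = 0.571). Fos (log2 change 0.42, SE 0.23), Fosb (-0.14, SE 0.26), Jun (-0.20, SE 0.15), Egr1 (-0.16, SE 0.22) and Ier2 (0.00, SE 0.11) did not pass, with edgeR adjusted p from 0.103 for Fos to 0.992 for Ier2. In Set 2 alone Fos passed, with a log2 change of 0.77 (SE 0.22, edgeR adjusted p = 0.0027). Set 2 holds the young mice singled out by the mark RU, in which Fos was low. At ZT0 Fos was 31.4 ± 20.4 CPM in young and 35.5 ± 15.8 CPM in nephritic mice of Set 2 (SD, n = 4 each). In Set 1, left out here, it was 44.2 ± 14.4 and 17.2 ± 16.6 CPM (SD, n = 3 each). Without the mice marked RU, Jun passed as lower, with a log2 change of -0.37 (SE 0.12, edgeR adjusted p = 0.00798), and the other 5 calls held. These mice were singled out by low values, so leaving them out lowers nephritic minus young by construction, and this is a description. With the leukocyte gene Ptprc as a covariate, which differs between the groups (5.54 to 14.4 CPM in young and 12.5 to 246 CPM in nephritic mice), 0 of the 10 genes and 0.508% of all genes passed with edgeR, and Ier3 and Klf4 had an unadjusted p under 0.05. Dusp1 then had a log2 change of 0.87 (SE 0.46) and Atf3 1.39 (SE 0.70). The part of leukocytes in these changes cannot be told apart from nephritis.

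**Figure D3:**
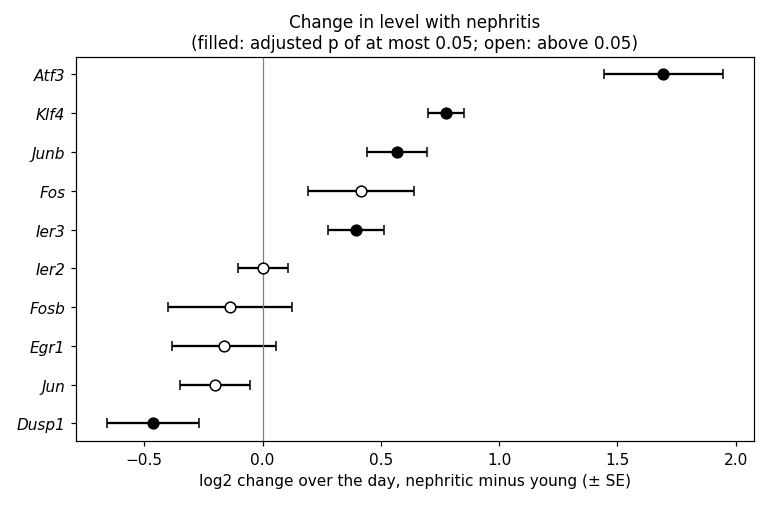
Log2 change over the day, nephritic minus young, for each gene with its standard error; filled symbols have an edgeR adjusted p of at most 0.05. Atf3 lies farthest to the right at 1.69, and Dusp1 is the filled symbol left of 0 at -0.46.

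Each time point was also compared on its own. At ZT0, Atf3 (log2 change 2.21, SE 0.49) and Klf4 (0.80, SE 0.15) were higher in nephritic mice, 2 of 10 genes beside 39.5% of all genes called in either direction. At ZT4, Atf3 (2.84, SE 0.69), Klf4 (1.12, SE 0.20) and Ier3 (0.90, SE 0.30) were higher, 3 of 10 beside 30.3%. At ZT4 the groups were apart: Atf3 was 9.20, 10.3, 13.01 and 13.4 CPM in the 4 nephritic mice and at most 2.53 CPM in the 4 young mice. Without RX11LU and RX11RU, Ier3 did not pass at ZT4 (0.76, SE 0.32, edgeR adjusted p = 0.0774).

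At ZT8 no gene passed with edgeR, DESeq2 or limma (0 of 10 beside 3.66%), and 5 had an unadjusted p under 0.05 with edgeR. At ZT12, Klf4 (0.82, SE 0.16), Junb (0.75, SE 0.27) and Atf3 (1.29, SE 0.49) were higher and Dusp1 was lower at -1.26 (SE 0.40, edgeR adjusted p = 0.00809), 4 of 10 beside 50.0%. In Set 2 alone Klf4 was the 1 of these that passed at ZT12 (1.09, SE 0.19), with 0.69 (SE 0.34, edgeR adjusted p = 0.127) for Junb and 0.97 (SE 0.63, 0.244) for Atf3. At ZT16 Klf4 alone was higher (0.63, SE 0.21), 1 of 10 beside 17.7%. At ZT20 no gene passed with edgeR, 0 of 10 beside 5.48%, while 2 had an unadjusted p under 0.05, DESeq2 called Ier3 and limma 0. At ZT16 Klf4 did not pass without the mouse RX7LL (edgeR adjusted p = 0.232), and at ZT12 Atf3 (0.0734) did not without HIL5LL, nor Junb (0.0835) without HIL5RU.

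The values of Dusp1 at ZT12 differed between the 2 sets. In Set 1 its level was 334, 367 and 386 CPM in the 3 young mice and 44.5 and 44.7 CPM in the 2 nephritic mice. In Set 2 the young mice had 161, 296, 316 and 319 CPM and the nephritic mice 88.8, 260, 264 and 291 CPM. The groups were far apart in Set 1 and overlapped in Set 2, where the log2 change at ZT12 was -0.28 (SE 0.41, edgeR adjusted p = 0.641).

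The levels of most of the genes were correlated from mouse to mouse. With time point and set removed, the 45 pairs among the 10 genes had a median Pearson r of 0.71 over the 30 young mice and 0.58 over the 27 nephritic mice. Fos and Egr1 were the closest of the pairs with Fos in both, with r = 0.93 (Spearman 0.84) in young and 0.93 (Spearman 0.86) in nephritic mice (permutation p = 1e-05 for each, the smallest that these resamples can give, and 3.1e-05 after Benjamini-Hochberg adjustment over the 28 relations tested). With the 2 mice farthest from the median of Fos left out, r was 0.87 and 0.88. Klf4 had r between 0.02 (Fos) and 0.27 (Ier3) with the other 9 genes in young mice. In nephritic mice its r ran from -0.32 (Dusp1) to 0.59 (Atf3) and 0.60 (Junb). Its relation to Fos had a permutation p of 0.92 (adjusted 0.92) in young mice and, with r = 0.15, of 0.47 (adjusted 0.53) in nephritic mice.

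The mice marked RU lay together at the low end in young mice. Among the 24 young mice outside these 6, the median r of the pairs was 0.35, and that of Fos with Egr1 was 0.75. In an edgeR fit with the Fos level as a covariate, 4 of the other 9 genes rose with Fos in young mice, beside 0.0424% of 16520 genes. Egr1 rose by 0.98 (SE 0.10) per doubling of Fos, Fosb by 1.11 (SE 0.19), Junb by 0.48 (SE 0.06) and Ier2 by 0.45 (SE 0.05). These 4 were among 7 genes called in all, and the other 3 were Btg2, Egr2 and, with the opposite sign, Tnfrsf17. Leaving out the ZT0 mouse marked RU alone moved Fosb above the threshold (edgeR adjusted p = 0.123). Without all 6 mice marked RU, 0 of 16246 genes passed with edgeR, while Egr1, Junb and Ier2 had an unadjusted p under 0.05. The slopes were then 0.47 (SE 0.12) for Egr1, 0.61 (SE 0.31) for Fosb, 0.32 (SE 0.10) for Junb and 0.30 (SE 0.09) for Ier2. Without the 9 mice with adrenal RNA, Egr1 alone passed (edgeR adjusted p = 0.00925). In nephritic mice, Egr1 was the 1 gene called, beside 0.00593% of 16871 genes, with a slope of 0.93 (SE 0.09), and 0.94 (SE 0.11) in Set 2 alone.

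**Figure D4:**
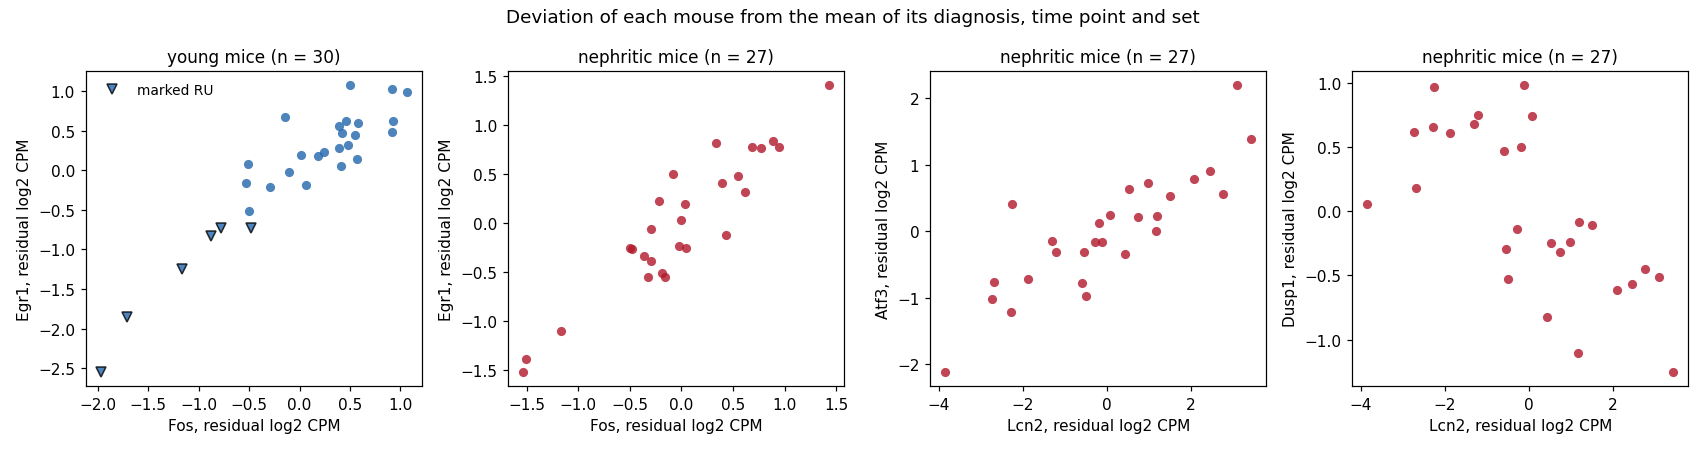
Each point is a mouse, given as its difference in log2 CPM from the mean of its diagnosis, time point and set, for Egr1 against Fos in young (n = 30) and nephritic (n = 27) mice and for Atf3 and Dusp1 against Lcn2 in nephritic mice; triangles are the 6 young mice marked RU. Egr1 follows Fos with r = 0.93 in both groups, Atf3 rises with Lcn2 (r = 0.85) and Dusp1 falls with it (r = -0.68).

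Among nephritic mice, Atf3, Junb and Klf4 rose and Dusp1 fell with Lcn2, a secreted marker of tubular injury that ranged from 4.79 to 702 CPM. Atf3 rose by 0.39 (SE 0.06, edgeR adjusted p = 5.2e-06) per doubling of Lcn2, Junb by 0.16 (SE 0.04, 0.00375) and Klf4 by 0.11 (SE 0.02, 0.000516), and Dusp1 changed by -0.24 (SE 0.05, 0.000922). These were 4 of 10 genes, a share near the 47.9% of 16871 genes. Fos, Egr1, Jun, Ier2, Ier3 and Fosb did not pass, with slopes between -0.13 and 0.09. In Set 2 alone the slopes were 0.34 (SE 0.06) for Atf3, 0.13 (SE 0.05) for Junb, 0.12 (SE 0.02) for Klf4 and -0.27 (SE 0.05) for Dusp1, all still past the threshold, and Fosb passed as well at -0.20 (SE 0.07, edgeR adjusted p = 0.0226). Pearson r with Lcn2 over the 27 mice was 0.85 for Atf3 (Spearman 0.84, permutation p = 1e-05, adjusted 3.1e-05), 0.73 for Klf4 (Spearman 0.74, permutation p = 2e-05, adjusted 5.1e-05), 0.63 for Junb (Spearman 0.54, permutation p = 0.00036, adjusted 0.00072) and -0.68 for Dusp1 (Spearman -0.68, permutation p = 9e-05, adjusted 0.00021). Without the 2 mice farthest from the Lcn2 median, r was 0.79, 0.71, 0.50 and -0.69. For Fos it was 0.03 (permutation p = 0.87).

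Other immediate early genes were also higher in nephritic mice in many cases. The lists were chosen with earlier results of these data known, so their counts are a description. Of 40 listed genes, 39 were tested over the day, and 25 were higher in nephritic mice and 0 lower, beside 28.1% and 33.9% of all genes (edgeR; 28 had an unadjusted p under 0.05), with a median log2 change of 0.51. The largest changes were those of Fosl1, another AP-1 subunit (5.09, SE 0.56), Socs3, a cytokine signalling inhibitor (3.14, SE 0.24), Egr3 (2.47, SE 0.18), Npas4 (2.47, SE 0.30) and Egr2 (2.39, SE 0.25). Of the 7 that were lowest in the mouse marked RU at all 6 time points, Trib1 was higher in nephritic mice (0.35, SE 0.09, edgeR adjusted p = 0.000463), and Btg2, Csrnp1, Dusp6, Nr4a1, Plk3 and Zfp36 did not pass. In young mice 26 of 37 varied over the day, beside 39.8% of all genes, led by Ier5, Sik1 and Rhob. The profile differed between the groups for 3 of 39, a share near the 6.27% of all genes, Sik1 (edgeR adjusted p = 0.0417), Nr4a1 (0.0483) and Trib1 (0.0496).

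Of 19 upstream kinases and transcription factors, 7 were higher and 5 lower over the day in nephritic mice, shares close to the 28.1% and 33.9% of all genes. Stat3, a cytokine-activated factor, had the largest change (0.92, SE 0.09), followed by Mkl1, a coactivator of serum response factor (0.46, SE 0.05), Elk3 (0.36, SE 0.06), Rps6ka1 (0.34, SE 0.05) and Crem (0.31, SE 0.06). Mapk14, Creb1 and Mapk3 led the 10 of 19 that varied over the day in young mice, beside 39.8% of all genes. In profile 1 of 19 differed, a share near the 6.27% of all genes. It was Atf4 (edgeR adjusted p = 0.0372), with Mapk3 (0.0727) and Mkl1 (0.21) next. Among the ligands and receptors of the EGF family, 3 of 9 were higher, Areg (3.77, SE 0.37), Ereg (0.62, SE 0.22) and Hbegf (0.45, SE 0.11), and 4 of 9 lower, Egf (-0.82, SE 0.24), Erbb3 (-0.43, SE 0.10), Egfr (-0.23, SE 0.05) and Erbb2 (-0.22, SE 0.04), beside the same shares. Erbb2, Btc and Erbb3 led the 5 of 7 that varied in young mice, beside 39.8% of all genes. In profile 1 of 9 differed, beside 6.27% of all genes. It was Erbb2 (edgeR adjusted p = 0.0175), with Tgfa (0.144) and Egfr (0.498) next.

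The genes outside the 10 that followed them most closely across the 57 mice, by mean Pearson r of the residuals, were Btg2 (0.72), Nr4a1 (0.63), Trib1 (0.62), Zfp36 (0.62), Cyr61 (0.58), Rasd1 (0.58), Egr2 (0.57), Csrnp1 (0.56), Rcan1 (0.54) and Plk3 (0.54), where the median over all genes was 0.01. These points share library, run and dissection, and no test was made of them. They include the young mice marked RU. Btg2, Nr4a1, Trib1, Zfp36, Csrnp1, Rcan1 and Plk3 were lowest in those mice at every time point, and Cyr61, Rasd1 and Egr2 were not. Single genes had their own neighbours. Fos was nearest to Egr1 (r = 0.93), Jun to Egr1 (0.87), Junb and Ier2 to each other (0.88) and Fosb to Nr4a1 (0.82). Atf3 was nearest to Hbegf (0.88), Ier3 to Phf13 (0.77), Dusp1 to Arl4d (0.85) and Klf4 to Kctd10 (0.79). Among the 10 nearest neighbours, Fos had 6 others of the 10 genes, while Ier3, Dusp1 and Klf4 had 0.

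In remission mice, Atf3 and Ier3 stood below the nephritic level, and Klf4 did not. The 8 mice were compared with the 13 nephritic and 14 young mice of ZT0 and ZT12. Atf3 was 3.44, 4.24, 4.39 and 4.99 CPM in the 4 remission mice of ZT0 and 3.66, 4.07, 10.9 and 14.9 CPM in those of ZT12, beside 3.73 to 66.0 and 10.2 to 31.98 CPM in nephritic mice. The log2 change from nephritic mice was -1.82 (SE 0.49, edgeR adjusted p = 0.00727). Ier3 was 56.2 to 65.1 CPM at ZT0 and 68.6 to 101 CPM at ZT12, a log2 change of -0.65 (SE 0.18, edgeR adjusted p = 0.00848). These 2 of 10 genes passed, beside 35.8% of 16344 genes. An unadjusted p under 0.05 was found for 3 of the 10, and DESeq2 called Junb as well.

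Klf4 was 16.6, 17.9, 17.9 and 20.9 CPM at ZT0 and 14.99, 15.2, 15.8 and 16.01 CPM at ZT12 in remission mice, above all 14 young mice, of which the highest had 14.1 CPM. Against young mice Klf4 was higher by 0.69 (SE 0.10, edgeR adjusted p = 3.3e-06), and Ier3 (-0.39, SE 0.11, edgeR adjusted p = 0.00605) and Egr1 (-0.89, SE 0.35, 0.0359) were lower, 3 of 10 genes beside 53.0% of 15982. Egr1 had 22.3, 31.6, 99.6 and 116 CPM at ZT0 and 21.3, 67.3, 99.3 and 144 CPM at ZT12, and its ranges overlapped those of both other groups. Without the ZT12 mouse s9, which was lowest for 7 of the 10 genes in its group, Egr1 did not pass (edgeR adjusted p = 0.0678). With a run covariate bridged by the 4 repeat libraries, Atf3 (-2.18, SE 0.62) and Ier3 (-0.66, SE 0.23) still differed from nephritic mice, 2 of 10 genes beside 23.6%, while against young mice Klf4 was the 1 gene that passed, beside 13.8%. The repeat labelled RX11RU is 1 of these 4. With the other 3 alone, an alternative chosen after seeing the data, Atf3 (-2.52, SE 0.67) and Ier3 (-0.79, SE 0.26) passed against nephritic mice. Against young mice Klf4 alone passed (0.55, SE 0.18, edgeR adjusted p = 0.0493). Both bridged fits held the originals and repeats of the same mice as separate libraries, without a term for mouse. Their SE and calls therefore treat these libraries as independent animals, which they are not.

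Between ZT0 and ZT12, Dusp1 (1.12, SE 0.22, edgeR adjusted p = 0.00238) and Ier3 (0.84, SE 0.14, 0.000462) were higher at ZT12 in young mice, 2 of 10 genes beside 16.6% of 15504. In nephritic mice 0 of 10 passed with edgeR, beside 0.0746% of 16076, and 0 had an unadjusted p under 0.05. In remission mice 0 of 10 and 0 of 14451 genes passed with edgeR, and 3 of the 10 had an unadjusted p under 0.05: Ier3 (0.44, SE 0.13), Klf4 (-0.25, SE 0.09) and Atf3 (0.97, SE 0.43). DESeq2 and limma called 0 of the 10 in both.

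**Figure D5:**
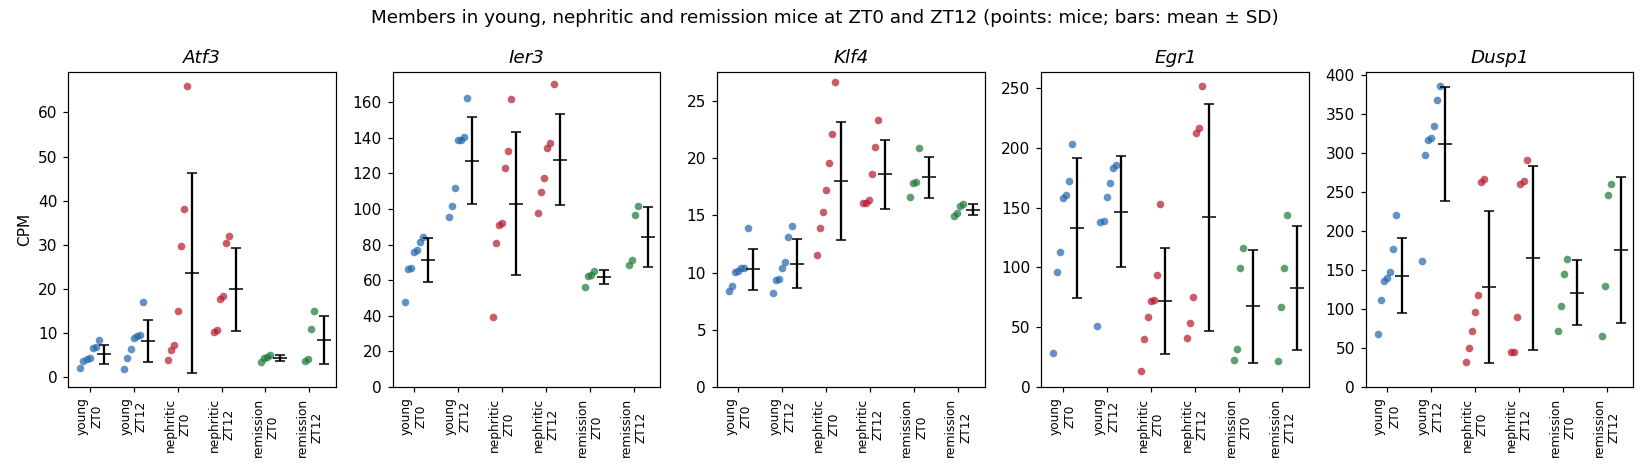
Level in CPM of Atf3, Ier3, Klf4, Egr1 and Dusp1 in young, nephritic and remission mice at ZT0 and ZT12; points are mice, and bars show mean ± SD. Atf3 of the remission mice lies between 3.44 and 14.9 CPM, and all 8 Klf4 values of remission mice lie above the highest young value of 14.1 CPM.

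Repeat libraries had been made from 4 mice. The median difference between a repeat and its original, in absolute log2 terms, was 0.07 for Ier2 and Junb, 0.08 for Klf4, 0.09 for Atf3, 0.12 for Egr1, 0.17 for Jun and Dusp1, 0.19 for Fos, 0.22 for Ier3 and 0.32 for Fosb, which had the lowest level of the 10. The ZT12 mouse marked RU was among them, and its Fos was 10.8 CPM in the original and 8.61 CPM in the repeat, its Egr1 51.2 and 52.3 CPM. Its low values were thus present in both libraries. The repeat labelled RX11RU enters these medians with the other 3, and its Dusp1 was 113 CPM beside 268 CPM in the original of that name. With the sign kept, Ier3 was lower in the repeat of all 4 mice. Its log2 differences were -0.22 (ZT0LU), -0.12 (ZT12RU), -0.21 (RX12RU) and -0.47 (RX11RU). Atf3 and Dusp1 were also lower in all 4, Ier2 was higher in all 4, and the other genes went both ways. The remission libraries came from the same run as the repeats.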

How the data were processed

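Poly(A) RNA of whole perfused kidneys was selected on oligo-dT beads, fragmented and sequenced on an Illumina instrument. The authors deposited raw read counts per gene symbol for 69 libraries. The processing notes name HISAT and mm10, while the study's methods name a Burrows-Wheeler aligner and the counting per transcript of reads placed once on exons or junctions with up to 2 mismatches. The counting tool is not given in the sources used here. Of 24538 symbols, 15 had empty cells in every library and were left out. The 4 repeat libraries entered the alternatives and the comparison with their originals only.

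Counts were tested with edgeR 4.0.16 in R 4.3.3 (quasi-likelihood F test, TMM scaling, a summed count of 100 or more in the fitted libraries, Benjamini-Hochberg adjustment over all genes, threshold 0.05). Time effects used the 6 time points as a factor with set as a covariate, and diagnosis effects used both groups in 1 fit. The study lists 2 RNASeq sets, and mice were assigned to them by the series of names in the sample titles. Spread was tested with limma 3.58.1 on absolute deviations of log2 CPM (prior count 2). On simulated data this test called more false differences than its threshold allows, and the other tests simulated, all edgeR fits, did not. Some edgeR fits, the bridged fits, DESeq2 and limma-trend were not simulated. The simulated data held no set effect and no correlation between genes, so how the tests behave with these is not shown. Alternatives were DESeq2 1.42.0, limma-trend, RLE size factors, no filter, no set covariate, Set 2 alone, a 24 h cosine, a Ptprc covariate, a bridged run covariate, repeat libraries and leaving out mice. Correlations used 1e+05 permutations, two-sided. Promoter windows came from RefSeq.

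The members and lists were chosen with earlier results of these data known. From each other list the 5 genes with the largest change over the day past the threshold and the 3 with the smallest p over time in young mice and for the difference in profile were named. Genes nearest to the members were the 10 with the highest mean Pearson r. Replicate numbers follow the order of the samples and pair none of them.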

Additional observations from a re-analysis of the deposited data

Results flagged for a closer look

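Of 120 sets of values, each 1 gene in 1 group of 4 to 7 mice, 17 held a mouse far from the others by Dixon's test, where chance flags about 1 in 20 such groups of values. In young mice these were mostly mice marked RU at the low end. At ZT12 the mouse ZT12RU had 0.467 CPM of Fosb, 36.5 CPM of Junb, 51.0 CPM of Egr1, 24.5 CPM of Ier2 and 161 CPM of Dusp1, all below the other 6 mice. Fos was 3.15 CPM in ZT8RU, Egr1 28.3 CPM in ZT0RU and Dusp1 79.7 CPM in ZT4RU. Ier3 of the ZT0 mouse CR6LL, of Set 1, was 47.6 CPM.

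In nephritic mice, the ZT4 mouse RX11LU stood above the other 3 for Fos (62.7 CPM), Jun (178 CPM) and Klf4 (18.7 CPM). A repeat library labelled as the ZT12 mouse RX11RU lay nearest to RX11LU, so whether this is a ZT4 mouse is in doubt. The ZT8 mouse RX12RL stood below the others for Fos (16.9 CPM) and Junb (71.9 CPM), and RX10RU above them for Atf3 (12.1 CPM). Jun was 34.9 CPM in the ZT0 mouse CRS6LL and 63.7 CPM in the remission mouse s9 of ZT12.

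The time profile differed between nephritic and young mice for Sik1 (edgeR adjusted p = 0.0417), Nr4a1 (0.0483) and Trib1 (0.0496) among the other immediate early genes, for Atf4 (0.0372) among the upstream factors and for Erbb2 (0.0175) among the EGF family, beside 6.27% of all genes.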

How the results depend on the processing

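Leaving out the 9 mice with adrenal RNA, the 6 young mice marked RU, or RX11LU and RX11RU, and the bridge over 3 repeat libraries, were chosen after seeing the data. The mice marked RU were singled out by low values of these genes, so counts without them support nothing. The numbers of the 10 genes called moved by over 1.5 times as follows, each beside the share of all genes called in that fit. Over time in nephritic mice, 1 passed with a 24 h cosine (2.15%), 1 with the repeat libraries (15.1%) and 1 without RX11LU and RX11RU (14.5%). Over the day, 0 passed with the Ptprc covariate (0.508%), where Dusp1 reversed to 0.87. For spread, 2 passed without the mice marked RU (14.6%). With the Fos level, 1 passed in young mice without adrenal mice (0.0124%) and 0 without the mice marked RU (0%), and in nephritic mice 3 with DESeq2 (0.0415%), 2 with no set covariate (0.0356%) and 2 without adrenal mice (0.0238%). Against young mice, remission gave 1 with the run covariate bridged by 4 repeat libraries (13.8%), 1 with that bridged by 3 (10.01%) and 7 without the mice marked RU (51.1%). Between ZT0 and ZT12 in young mice, Set 2 alone gave 1 (12.4%). Nephritic against young mice gave 4 at ZT0 without the mice marked RU (37.2%), 1 at ZT8 (5.57%) and 1 at ZT12 (29.3%) in Set 2 alone, 0 at ZT16 without adrenal mice (2.84%) and 0 without the mice marked RU (13.2%), and at ZT20 1 with DESeq2 (6.24%) and 2 in Set 2 alone (8.10%).

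With each mouse left out in turn, 5 to 6 genes varied over time in young and 1 to 3 in nephritic mice, 0 to 0 differed in profile, 4 to 5 in level and 0 to 1 in spread. With Fos, 3 to 6 passed in young and 1 to 2 in nephritic mice, and with Lcn2 4 to 5. Remission gave 2 to 3 against nephritic and 2 to 6 against young mice. The ranges were 2 to 4 at ZT0, 2 to 3 at ZT4, 0 to 0 at ZT8, 2 to 4 at ZT12, 0 to 1 at ZT16 and 0 to 1 at ZT20. The cause of these moves was not tested. No paired analysis was possible because the replicate numbers only follow sample order. Fosb, at 0.227 CPM in its lowest mouse, rests on the fewest counts.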
